A study of Caenorhabditis elegans with 18 samples.

Results

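Flavin-containing monooxygenases add an oxygen atom to nitrogen or sulfur in their substrates, with FAD as the bound cofactor and NADPH as the source of electrons. Caenorhabditis elegans carries 5 genes of this family, fmo-1 to fmo-5. The best known is fmo-2, which is induced in the intestine by fasting, dietary restriction and stabilised HIF-1 (the transcription factor of the hypoxia response), and whose induction is sufficient to lengthen life. The transcription factors NHR-49 and HLH-30 are also known to induce fmo-2, and fmo-4 is known to act in the hypodermis in osmotic balance and downstream of fmo-2 in longevity.

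The 5 genes were found by name among 45461 rows of the deposited gene tables. All 5 were among the 16770 genes that passed the filter on low counts, fmo-2 only through the hira-1(-) adult libraries. The family was chosen by the level of fmo-2 in hira-1(-) adults. The adult comparison of genotypes is therefore given as a description, without tests on the family, and so are the stage comparisons of fmo-2. The genotype comparison at L4 did not enter that choice and was tested for all 5 genes. For fmo-2, which is tested only because hira-1(-) adults carried it past the filter, it rests on 6 counts against 2. Those counts are too few for the L4 test of fmo-2 to decide, and no conclusion is drawn from it. On the chromosomes, fmo-1 and fmo-2 lie on IV with 3 protein-coding genes between them, fmo-3 on III, and fmo-4 and fmo-5 on V, in a reference annotation of a later build than that of the tables.

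RNA with a poly(A) tail was sequenced from whole worms kept at 20 °C with E. coli OP50 as food. The groups were adults of strain MT23643, which carries the gk835598 allele of hira-1 and is written hira-1(-), adults of the wild-type strain N2, hira-1(-) larvae of the fourth larval stage (L4) and N2 L4 larvae, with 2 libraries each. HIRA-1 is a chaperone that places the histone variant H3.3 in chromatin, and the submitters describe the mutant as null. The series has 18 samples, of which 8 were used; larvae of stage L1 and replicates with the number 3 were not used here. The mutant is 1 strain, so other differences between it and N2 cannot be told apart from the allele. In bulk RNA of whole animals, fewer cells of a type and less RNA per cell cannot be told apart. No label states that the replicates were grown separately, so each p-value covers the spread of these libraries alone, which could be technical.

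The libraries held 26010307 to 31174599 estimated counts. Transcripts of hira-1 were present in every library and fell in hira-1(-) at both stages, to 40.4 ± 0.44 CPM (counts scaled to a fixed library size) against 109 ± 0.78 CPM in N2 adults, and to 24.5 ± 1.1 CPM against 35.1 ± 3.2 CPM in N2 L4 larvae (SD, n = 2 each). The stage labels were checked with yolk and molting genes. Summed over 6 vitellogenins, adults held 18643 to 22232 CPM in hira-1(-) and 43840 to 52084 CPM in N2, and L4 larvae held 556 to 656 CPM in hira-1(-) and 1550 to 2304 CPM in N2. Summed over 6 molting genes, adults held 121 to 135 CPM in hira-1(-) and 58.9 to 59.3 CPM in N2. The L4 larvae held 1592 to 1801 CPM in hira-1(-) and 1829 to 1996 CPM in N2. The adult sums understate the difference of most of these genes. In hira-1(-) adults 5 of the 6 were higher than in N2 adults, with log2 fold changes of 1.79 to 3.44. The 1 lower was nas-37 (-0.51), named after its value was seen, which held 39.7 CPM in N2 adults. The median of the 6 was 2.003, against 0.03 for all genes. The part of this difference in the other adult differences was not tested.

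The gene fmo-2 (K08C7.5) was close to silent in 3 of the 4 groups. It had 238 and 141 estimated counts in the hira-1(-) adult libraries, against 4 and 2 counts in N2 adults. In L4 larvae it had 3 and 3 counts in hira-1(-) and 1 and 1 in N2. The hira-1(-) adult libraries therefore stood apart from the other 6 libraries, which did not exceed 4 counts. In CPM these were 8.83 and 5.32 in hira-1(-) adults against 0.167 and 0.0718 in N2 adults, a mean of 7.07 ± 2.5 against 0.119 ± 0.067 CPM (SD, n = 2 each).

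On group totals the ratio of hira-1(-) to N2 adults was 61.2, with a 95% exact interval of 27.9 to 168 that covers counting error only. The fitted log2 fold change was 5.88 (SE 0.41), and 93 of the 16770 genes tested had a larger one. Leaving out N2 adult replicate 1, which held 4 of the 6 N2 counts, brought the log2 fold change to 6.49. Leaving out each of the other adult libraries gave 5.36 to 6.19. Within hira-1(-), adults exceeded L4 larvae by a ratio of 70.7 (95% exact interval 32.2 to 194) and by 6.08 (SE 0.40) on the log2 scale. The adult values of fmo-2 chose the family, so these ratios, the rank and the refits describe them and test nothing. Both intervals leave out the difference between replicates, which is given next.

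The hira-1(-) adult replicates differed in fmo-2 by more than counting error. Replicate 1 held 238 counts (95% Poisson interval 209 to 270) and replicate 2 held 141 (119 to 166), a ratio of 1.66 in CPM. Among 1876 genes within 1.5-fold of its level in these libraries, the median difference between the replicates was 0.12 on the log2 scale, against 0.72 for fmo-2, and 99.6% of these genes differed less.

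At L4 the difference in fmo-2 was not detectable at this depth. The 6 counts in hira-1(-) against 2 in N2 gave a ratio of 2.76 with a 95% exact interval of 0.493 to 27.9, and a log2 fold change of 1.36 (SE 1.14, adjusted p = 0.33). N2 adults had 6 counts in all against 2 in N2 L4 larvae, a ratio of 3.18 with a 95% exact interval of 0.569 to 32.2. In the order of levels, N2 adults and hira-1(-) L4 larvae overlapped (0.167 and 0.0718 CPM against 0.101 and 0.0991 CPM).

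**Figure D1:**
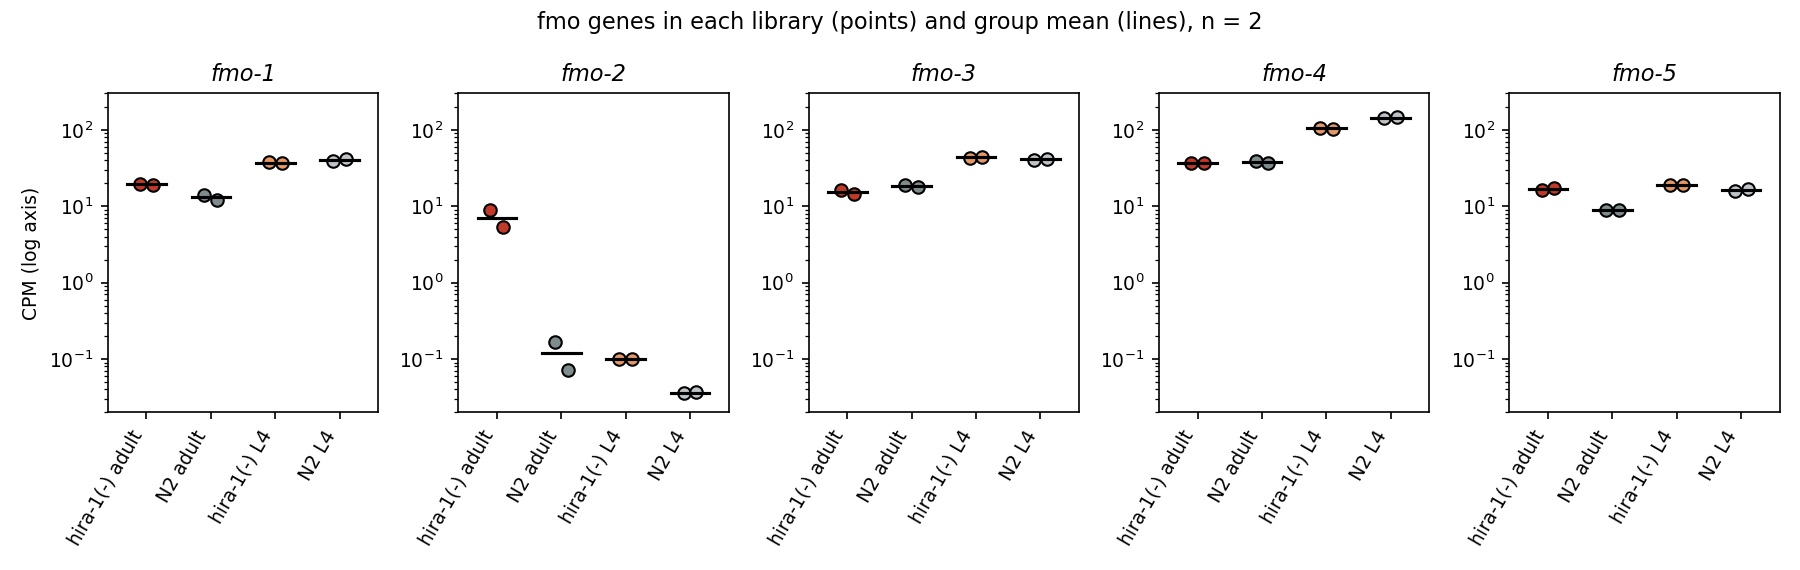
Level of each fmo gene in CPM on a log axis, for the libraries (points) and group means (lines) of hira-1(-) adults, N2 adults, hira-1(-) L4 and N2 L4 larvae, n = 2 each. In fmo-2 the 2 hira-1(-) adult libraries sit at 8.83 and 5.32 CPM and the other 6 lie at or below 0.167 CPM; CPM does not correct for gene length, so levels compare within a panel only.

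The gene fmo-4 (F53F4.5) had the most transcript of the family per length in every library. It reached 20.6 and 20.5 FPKM (fragments scaled to transcript length and library size) in hira-1(-) adults, against 19.4 and 17.8 FPKM in N2 adults. At L4 it reached 64.0 and 62.3 FPKM in hira-1(-) and 76.9 and 81.3 FPKM in N2. The L4 libraries of both genotypes lay above all adult libraries.

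At L4, fmo-4 fell in the mutant, to 105 ± 2.3 CPM in hira-1(-) against 145 ± 5.0 CPM in N2 (SD, n = 2 each; log2 fold change -0.46, SE 0.05, adjusted p = 6.1e-06). The genotypes did not overlap. Markers of the hypodermis were measured beside it: the summed level of 10 such genes was 788 to 789 CPM in hira-1(-) L4 and 824 to 927 CPM in N2 L4 larvae, with 4 higher, 2 lower and none at 0. Their median log2 fold change was 0.27, against 0.10 for all genes. The most abundant of them, rol-6, was 1 of the 2 lower, with 252 CPM in hira-1(-) and 446 CPM in N2. Those of the excretory duct, pore and canal summed to 709 to 710 CPM in hira-1(-) and 716 to 787 CPM in N2, with 4 of 9 higher, 1 lower and none at 0. Their median log2 fold change was 0.12, and the 1 lower was vha-8, the most abundant, with 501 CPM in hira-1(-) and 625 CPM in N2. Both rol-6 and vha-8 were named here after their values were seen. Other tissues moved at L4 as well. Body wall muscle markers summed to 4962 to 5923 CPM in hira-1(-) L4 and 8362 to 12055 CPM in N2 L4 larvae, with none of 8 higher, 6 lower and a median log2 fold change of -0.79. Intestine markers had 8 of 11 lower (median -0.36) and germ line markers 9 of 10 higher (median 1.021). Of all genes tested at L4, 35.5% were higher and 22.6% lower, with a median of 0.10. The part of these tissues in the fall of fmo-4 was not tested. In adults the genotypes overlapped, at 36.7 ± 0.036 CPM in hira-1(-) and 38.1 ± 2.1 CPM in N2 (log2 fold change -0.05, SE 0.06, and 0.15 with library totals, the scale on which the FPKM values above are higher in hira-1(-) adults).

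The gene fmo-5 (H24K24.5) was higher in hira-1(-) at both stages. In adults it had 16.1 and 17.1 CPM in hira-1(-) against 9.06 and 9.08 CPM in N2 (log2 fold change 0.87, SE 0.10). The genotypes did not overlap. At L4 it had 19.3 and 19.3 CPM in hira-1(-) against 15.9 and 16.7 CPM in N2 (log2 fold change 0.24, SE 0.09, adjusted p = 0.0335). Here too the genotypes did not overlap, while the hira-1(-) adult libraries overlapped those of N2 L4 larvae. This L4 call was lost with DESeq2 on all 8 libraries (adjusted p = 0.163). In the main fit it was also lost without each of the 4 L4 libraries in turn, and without N2 adult replicate 1. The log2 fold change was then 0.09 without N2 L4 replicate 1 and 0.13 without N2 adult replicate 1.

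The gene fmo-1 (K08C7.2) had 19.7 and 19.3 CPM in hira-1(-) adults against 14.2 and 12.02 CPM in N2 adults. The adult genotypes did not overlap (log2 fold change 0.58, SE 0.09). At L4 the order was the other way round, with 37.5 and 37.4 CPM in hira-1(-) against 39.7 and 41.2 CPM in N2, and the difference did not pass (log2 fold change -0.11, SE 0.08, adjusted p = 0.241). With library totals that L4 value was 0.03, and without N2 L4 replicate 1 it passed at -0.25 (adjusted p = 0.0239), as it did without N2 adult replicate 1 at -0.22 (adjusted p = 0.0176).

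The gene fmo-3 (Y39A1A.19) was the only one of the family besides fmo-4 whose mean CPM was lower in hira-1(-) adults than in N2 adults. It had 16.21 and 14.4 CPM in hira-1(-) against 19.3 and 17.9 CPM in N2 (log2 fold change -0.28, SE 0.08, and -0.07 with library totals). At L4 it had 43.5 and 44.4 CPM in hira-1(-) against 41.0 and 41.8 CPM in N2, a difference that did not pass (log2 fold change 0.09, SE 0.07, adjusted p = 0.328). Library totals made it pass at 0.22 (adjusted p = 0.0194), and without N2 L4 replicate 1 it was -0.04.

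Of the 5 genes, 2 passed between the genotypes at L4, fmo-4 as lower and fmo-5 as higher, where 58.0% of all genes tested passed (35.5% higher and 22.6% lower). The share of the family is no larger than that of all genes. Among the 5, fmo-2 had 6 counts in hira-1(-) and 2 in N2 at L4, too few for its test to decide. The libraries of the genotypes did not overlap for 5 of 5 fmo genes at L4, where 78.9% of all genes did not overlap, and for 4 of 5 in adults, where it was 78.8%. For fmo-2 this rested on 3 and 3 counts against 1 and 1 at L4, and in adults on the values that chose the family. In adults, where the family was chosen, 55.1% of all genes passed (28.6% higher and 26.5% lower). Over all genes the log2 fold changes had a median of 0.10 at L4 and 0.03 in adults. With library totals the median was 0.24 at both stages. Differences of this size depend on the scaling, in fmo-1, fmo-3 and fmo-5 at L4 and in fmo-3 and fmo-4 in adults. At L4 fmo-5 was 0.38 with library totals and 0.14 with a filter of at least 1 CPM in 2 libraries. The larger L4 fall of fmo-4 (-0.46) also passed with library totals (-0.33).

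**Figure D2:**
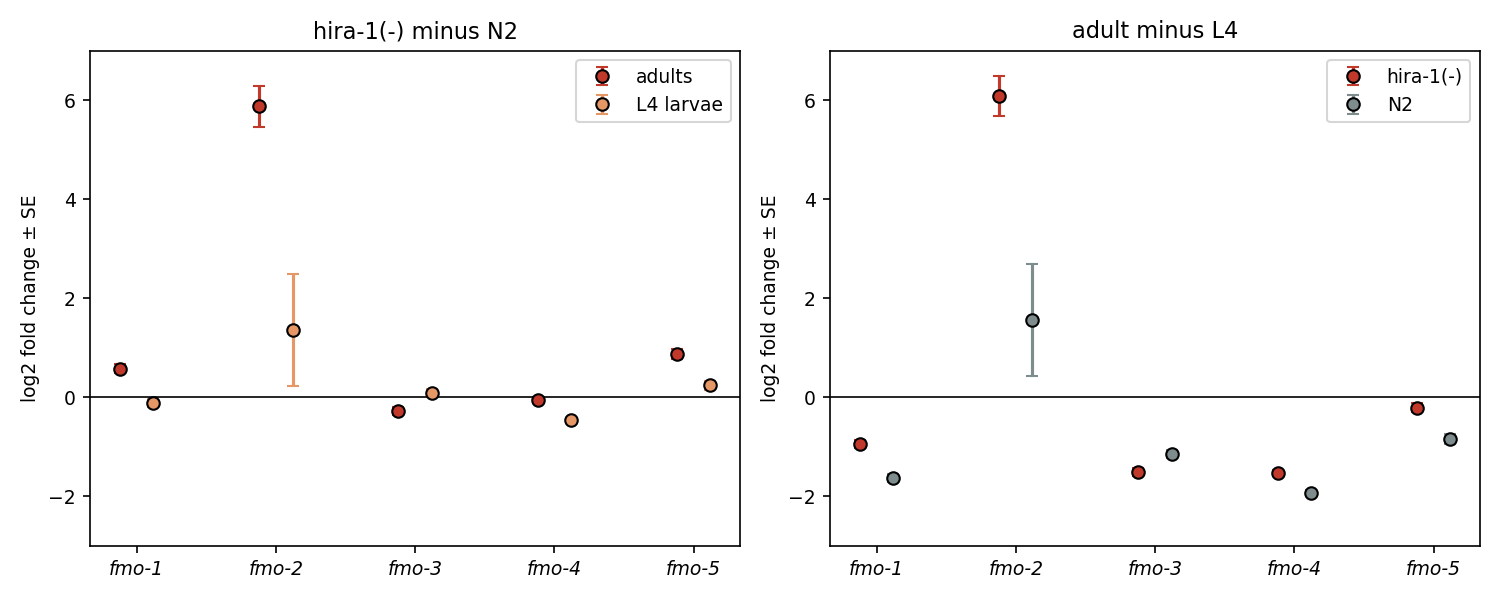
Log2 fold change with its standard error for the 5 fmo genes, hira-1(-) minus N2 (left, adults and L4 larvae) and adult minus L4 (right, hira-1(-) and N2). The values of fmo-2 in hira-1(-) adults, 5.88 over N2 adults and 6.08 over hira-1(-) L4 larvae, lie far above those of the other 4 genes, which stay between -1.93 and 0.87.

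With the stage of development, fmo-1, fmo-3, fmo-4 and fmo-5 fell in adults of both genotypes. The stage comparisons of fmo-2 were not tested, because its adult libraries took part in the choice of the family. Its adult to L4 ratio was 70.7 in hira-1(-) and, on few counts, 3.18 in N2. In N2 adults against N2 L4 larvae, fmo-4 fell by 1.93 (SE 0.06, adjusted p = 1.8e-12), fmo-1 by 1.63 (SE 0.09, adjusted p = 7.0e-10), fmo-3 by 1.15 (SE 0.08, adjusted p = 1.0e-08) and fmo-5 by 0.85 (SE 0.10, adjusted p = 2.2e-06), all on the log2 scale. Of all genes, 81.6% passed in this comparison (43.4% lower). No N2 adult library overlapped an N2 L4 library in any of the 5 genes, where 89.5% of all genes did not overlap. For fmo-2 this rested on 4 and 2 counts against 1 and 1.

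In hira-1(-) adults against hira-1(-) L4 larvae the falls were 1.52 for fmo-4 (SE 0.06, adjusted p = 4.8e-11), 0.94 for fmo-1 (SE 0.08, adjusted p = 1.9e-07), 1.52 for fmo-3 (SE 0.08, adjusted p = 1.2e-09) and 0.21 for fmo-5 (SE 0.09, adjusted p = 0.0451) on the log2 scale. Of all genes, 74.4% passed here (38.4% lower). The stages did not overlap in any of the 5 genes, where 88.1% of all genes did not overlap. For fmo-2 this rested on the adult values that chose the family. For fmo-5 the call did not hold with DESeq2 (adjusted p = 0.267), with RLE scaling (adjusted p = 0.112) or without each of the 4 hira-1(-) libraries (adjusted p = 0.0691 to 0.214). The sizes of the falls are given side by side, and their difference between the genotypes was not tested, since it rests on the adult comparison.

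The make-up of the family was set out per length, on the deposited FPKM scale. FPKM follows library totals, with which the adult median over all genes was 0.24, against 0.03 in CPM. The size of the adult difference in the sums therefore depends on the scaling. For fmo-1 the means in hira-1(-) and N2 adults were 10.9 and 6.31 in FPKM and 19.5 and 13.1 in CPM. Summed over the 5 genes, transcripts came to 57.2 and 53.6 FPKM in hira-1(-) adults against 41.3 and 38.0 FPKM in N2 adults, and to 127 and 126 FPKM in hira-1(-) L4 larvae against 132 and 139 FPKM in N2 L4 larvae. The share of fmo-2 was 9.46% and 5.98% of the sum in the hira-1(-) adult libraries, against 0.218% and 0.105% in N2 adults. Even there fmo-2 remained the least abundant of the 5 per length, with 5.41 and 3.20 FPKM against 8.76 FPKM or more for each other member. The share of fmo-4 was 37.2% ± 1.6 in hira-1(-) adults and 46.9% ± 0.079 in N2 adults, and at L4 it was 49.9% ± 0.69 in hira-1(-) and 58.5% ± 0.22 in N2 larvae (SD, n = 2 each).

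**Figure D3:**
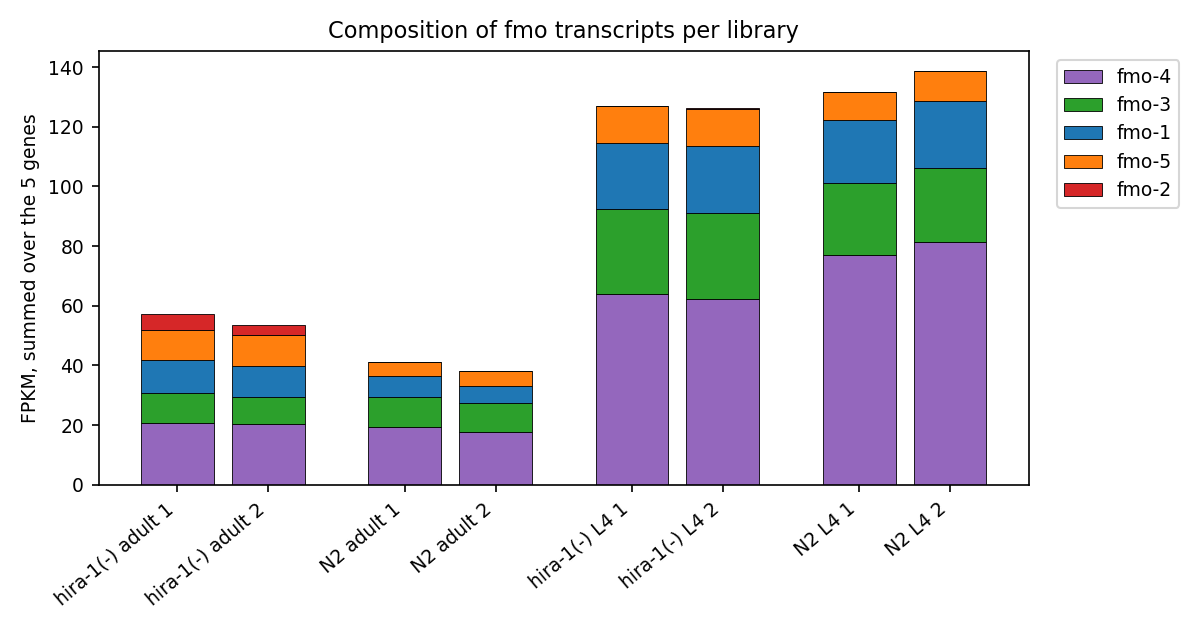
FPKM of the 5 fmo genes stacked for each of the 8 libraries (hira-1(-) adults, N2 adults, hira-1(-) L4, N2 L4; replicates 1 and 2). Adult sums reach 57.2 and 53.6 FPKM in hira-1(-) and 41.3 and 38.0 FPKM in N2, all below the L4 sums, and fmo-2 forms a visible part only in hira-1(-) adults. FPKM follows library totals, so the size of the difference between genotypes depends on the scaling.

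The protein-coding genes next to fmo-2 differed from it in the adult comparison. They were looked at after the values were seen. K08C7.4, on the side of fmo-1, had a mean of 0.822 CPM in hira-1(-) and 0.588 CPM in N2 adults (log2 fold change 0.50, SE 0.39, adjusted p = 0.294), and K08C7.6, on the other side, had 8.17 CPM in hira-1(-) and 9.59 CPM in N2 adults (log2 fold change -0.23, SE 0.12, adjusted p = 0.123). K08C7.7, which also lies between fmo-1 and fmo-2, was lower in hira-1(-) adults (log2 fold change -0.95, SE 0.18, adjusted p = 8.4e-04). The laminin gene epi-1, beyond K08C7.4, was higher in hira-1(-) adults (log2 fold change 0.54, SE 0.09, adjusted p = 7.1e-04), as was R102.1, beyond K08C7.6, with 1.09 CPM in hira-1(-) against 0.207 CPM in N2 adults (log2 fold change 2.33, SE 0.52, adjusted p = 0.0021). No annotated gene overlapped any of the 5 fmo genes in the reference annotation.

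Profiles across the 8 libraries were compared with those of 9380 other genes with a 3- or 4-letter name, by the root mean square difference of log2 CPM after centring each gene. The closest to fmo-2 were ins-8 (an insulin-like peptide gene, 0.69), hch-1 (an astacin protease gene needed for hatching, 0.71), zip-8 (a bZIP factor gene, 0.81), thn-1 (a thaumatin family gene, 0.87) and dpy-14 (a collagen gene, 0.89). They were chosen by their likeness to fmo-2 in these libraries, so being high in both hira-1(-) adult libraries follows from that choice. The gene zip-8 had 8.16 and 5.96 CPM there, against 0.626 and 0.466 CPM in N2 adults, and ins-8 had 40 and 26 estimated counts there and none in the other 6 libraries. The gene dpy-14 had 6.21 and 3.88 CPM in hira-1(-) adults.

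This measure grows with the range of a gene and with its counting noise, so its size is not compared between fmo-2 and the rest of the family. The closest to fmo-4 were cpz-2 (0.05), dpy-11 (0.05) and bre-1 (0.06), and to fmo-1 rnst-2 (0.05), fig-1 (0.06) and nrx-1 (0.09). Those closest to fmo-5 were kola-4 (0.04), ghi-1 (0.05) and ppt-1 (0.06), and those closest to fmo-3 were bus-6 (0.10), ctsa-4.2 (0.10) and rol-3 (0.11). These are descriptions over 8 libraries that share 2 stages and 2 genotypes.

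**Figure D4:**
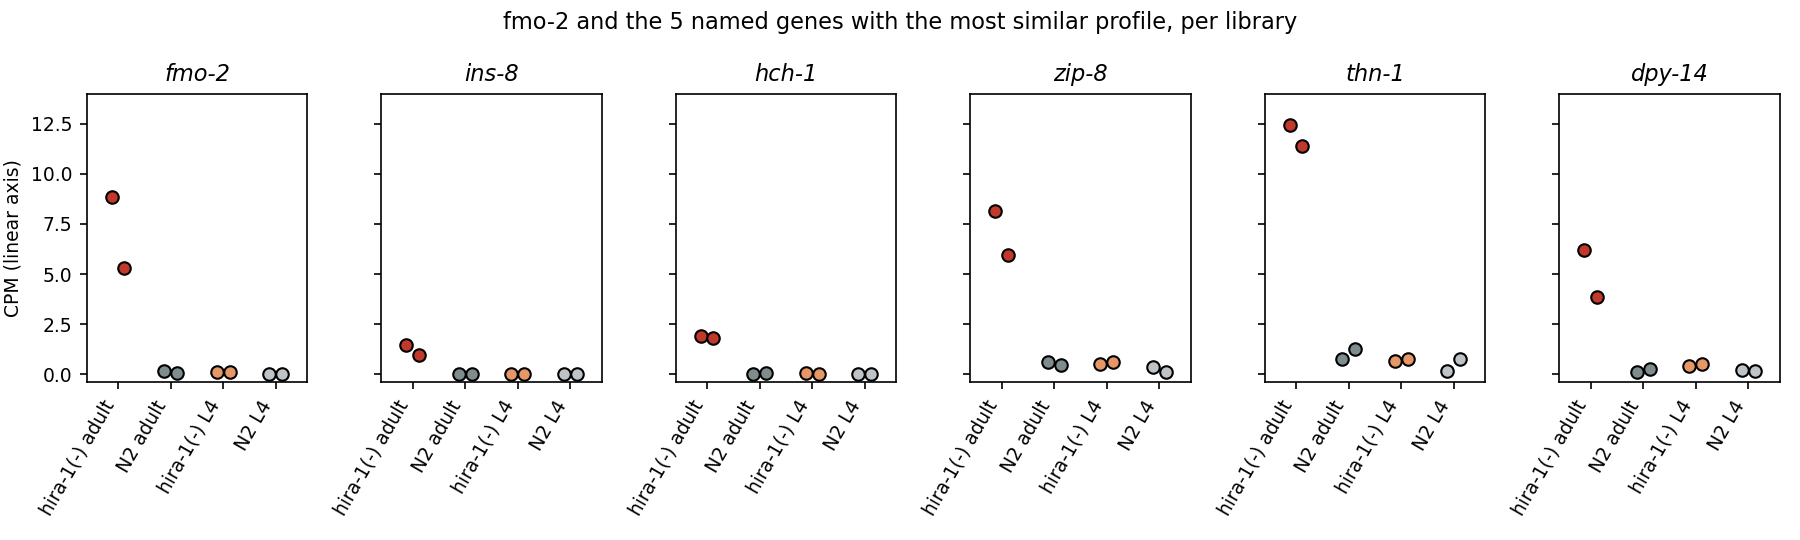
CPM on a linear axis in each library for fmo-2 and the 5 named genes with the most similar profile, in hira-1(-) adults, N2 adults, hira-1(-) L4 and N2 L4 larvae. Each gene is highest in the 2 hira-1(-) adult libraries, with fmo-2 at 8.83 and 5.32 CPM and zip-8 at 8.16 and 5.96 CPM.

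The genes around the family were described from 7 lists, of which the first holds HIF-1, its regulators and its targets. At L4, 6 of 13 fell in hira-1(-) and 2 rose (median log2 fold change -0.26, against 0.10 for all genes). That is 61.5% of the list called, near the 58.0% of all genes. The target gene cysl-2, a cysteine synthase relative, fell to 55.3 ± 3.3 CPM in hira-1(-) against 199 ± 12 CPM in N2 L4 larvae (log2 fold change -1.85, SE 0.13, adjusted p = 3.0e-05). Its adult difference missed the threshold (-0.37, adjusted p = 0.0682). The target F22B5.4 rose to 8.61 ± 0.78 CPM in hira-1(-) against 3.02 ± 0.0080 CPM in N2 (log2 fold change 1.51, SE 0.20, adjusted p = 2.4e-05). Among the same 13 genes in adults, 5 fell and nhr-57 (log2 fold change 0.99) rose (median -0.17, against 0.03 for all genes), 46.2% of the list against 55.1% of all genes. With library totals the adult counts were 3 lower and 1 higher and the median was 0.03, and with RLE scaling they were 10 and 1. The 5 were egl-9 (-0.53), which encodes the prolyl hydroxylase that marks HIF-1 for degradation, vhl-1 (-0.41), rhy-1 (-1.05), ethe-1 (-0.61) and F22B5.4 (-0.70). These genes, apart from F22B5.4, and nhr-57 were named after their values were seen. In adults F22B5.4 did not pass with library totals (adjusted p = 0.083), without N2 adult replicate 2 (adjusted p = 0.324) or without hira-1(-) adult replicate 1 (adjusted p = 0.175).

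Of 16 genes around the nuclear receptor NHR-49 and its partner MDT-15, 8 fell and 3 rose in hira-1(-) at L4 (median -0.26), 68.8% of the list against 58.0% of all genes. The acyl-CoA synthetase gene acs-2, a fasting-induced NHR-49 target, was at 3.58 ± 0.82 CPM in hira-1(-) against 16.02 ± 3.3 CPM in N2 L4 larvae (log2 fold change -2.16, adjusted p = 4.6e-07), and did not pass in adults (1.51 ± 0.062 CPM in hira-1(-), 1.63 ± 0.17 CPM in N2, adjusted p = 0.779). The glyoxylate cycle gene icl-1 fell in hira-1(-) at L4 (log2 fold change -0.90, adjusted p = 1.5e-07) and rose in hira-1(-) adults, to 75.4 ± 1.3 CPM against 34.0 ± 1.2 CPM in N2 (log2 fold change 1.15, adjusted p = 5.6e-08). In adults 6 of the 16 fell and 2 rose (median -0.09), 50% of the list against 55.1% of all genes, and with library totals 5 fell and 5 rose (median 0.12).

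Genes of autophagy and lysosomes around HLH-30 moved in both directions at L4, with 9 of 21 tested higher in hira-1(-) and 6 lower (median -0.02), and with library totals 10 higher and 2 lower (median 0.12). The share called at L4 was 71.4%, against 58.0% of all genes. In adults 14 were higher and 1 was lower (median 0.42, against 0.03 for all genes), again 71.4%, against 55.1% of all genes, of which 28.6% were higher and 26.5% lower. With RLE scaling these adult counts were 13 and 3, and with library totals 18 and 1. The autophagy receptor gene sqst-1 rose in both, to 84.9 ± 5.5 CPM in hira-1(-) adults against 22.7 ± 2.2 CPM in N2 adults (log2 fold change 1.91, SE 0.08, adjusted p = 5.6e-10), and at L4 to 92.5 ± 5.3 CPM in hira-1(-) against 46.0 ± 1.1 CPM in N2 (log2 fold change 1.01, adjusted p = 8.2e-08). The lysosomal lipase gene lipl-5 fell at L4 (-0.63) and in adults (-0.86), where it was the 1 gene lower. Among the 14 were hlh-30 itself (0.57), mml-1 (0.54), mxl-3 (0.51) and mxl-2 (0.29), named after their values were seen. The part of these genes in the level of fmo-2 was not tested.

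Of 19 tested genes of oxidative stress defence, 5 rose and 5 fell at L4, and 7 rose and 7 fell in adults, or 10 and 4 with library totals. The share called was 52.6% at L4, against 58.0% of all genes, and 73.7% in adults, against 55.1%. Glutathione transferase gst-10 fell in hira-1(-) at L4 (log2 fold change -1.69, adjusted p = 1.6e-10) and in adults (-1.95, adjusted p = 6.2e-11), and the catalase gene ctl-3 rose at L4 (1.21, adjusted p = 2.5e-07) and in adults (1.55, adjusted p = 2.2e-08). The median of this list was 0.03 at L4 and 0.06 in adults, and -0.01 in adults with RLE scaling.

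FMO-2 is known to act on the metabolism of tryptophan and of one-carbon units. Of 20 genes of the methionine and folate cycles, 10 fell and 2 rose in hira-1(-) at L4 (median -0.17), and 13 fell and 2 rose in adults (median -0.40). With library totals 8 fell and 5 rose at L4, and 11 fell and 5 rose in adults. The share called was 60% at L4, near the 58.0% of all genes, and 75% in adults, against 55.1%. The S-adenosylmethionine synthetase gene sams-1 fell to 242 ± 10.2 CPM in hira-1(-) adults against 654 ± 41 CPM in N2 adults (log2 fold change -1.43, SE 0.06, adjusted p = 7.2e-10), and at L4 to 376 ± 2.4 CPM in hira-1(-) against 640.2 ± 14 CPM in N2 (log2 fold change -0.77, adjusted p = 1.6e-07). The methionine synthase reductase gene mtrr-1 rose at L4 (0.60, adjusted p = 3.3e-07) and did not pass in adults (0.01, adjusted p = 0.841, and 0.22 with adjusted p = 0.0024 with library totals).

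Of 11 genes of tryptophan and kynurenine metabolism, 7 fell and 1 rose at L4 (median -0.64), and 6 fell and 1 rose in adults (median -0.43). With library totals 6 fell and 3 rose at L4. The share called was 72.7% at L4, against 58.0% of all genes, and 63.6% in adults, against 55.1%. The dioxygenase gene tdo-2, which opens the tryptophan ring, fell to 102 ± 2.1 CPM in hira-1(-) L4 against 195 ± 1.5 CPM in N2 L4 larvae (log2 fold change -0.94, adjusted p = 1.2e-08), and to 54.8 ± 1.0 CPM in hira-1(-) against 73.8 ± 5.2 CPM in N2 adults (-0.43, adjusted p = 3.6e-05). The pyrimidine synthesis gene umps-1, which in worms also acts in making NAD from kynurenine, fell at L4 (-1.01, adjusted p = 2.7e-08) and did not pass in adults (-0.10, adjusted p = 0.217).

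NADPH, the electron donor of the family, is supplied by a handful of dehydrogenases. Of 9 genes of NADPH supply and electron transfer, 5 fell and 2 rose at L4 (median -0.18), and 4 fell and 1 rose in adults (median -0.09). The share called was 77.8% at L4, against 58.0% of all genes, and 55.6% in adults, near the 55.1% of all genes. The 1 that rose was nnt-1 (1.16), a transhydrogenase gene named after its value was seen. With library totals 2 fell and 2 rose at L4, and in adults none fell and 4 rose (median 0.11). The cytochrome P450 reductase gene emb-8 fell at L4 (-0.41, adjusted p = 7.7e-06). It was lower in adults too (-0.15, adjusted p = 0.0141), but at 0.05 with library totals (adjusted p = 0.392). The dehydrogenase gene dhs-1 rose at L4 (0.38, adjusted p = 3.7e-04, and adjusted p = 0.0836 without N2 L4 replicate 1) and fell in adults (-0.26, adjusted p = 0.0032, and adjusted p = 0.51 with library totals).

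**Figure D5:**
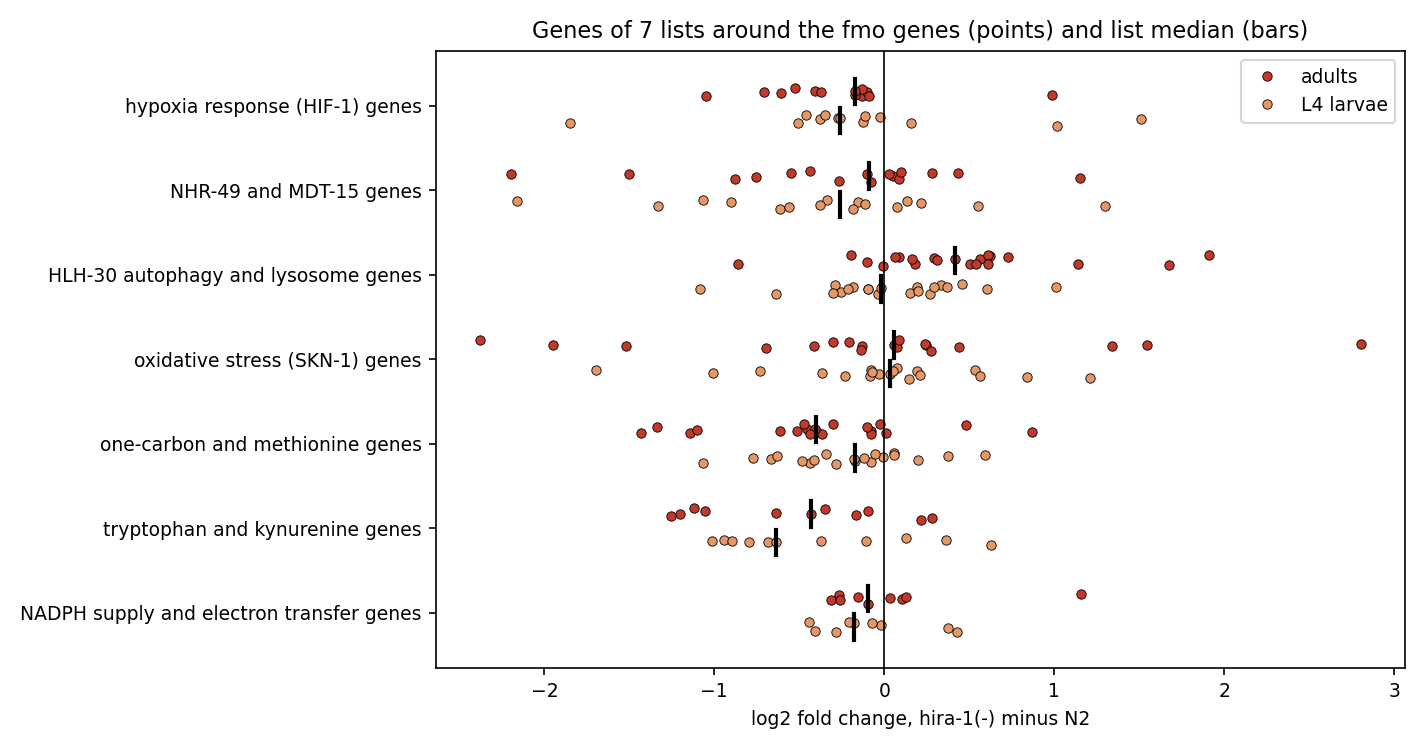
Log2 fold change, hira-1(-) minus N2, for the tested genes of 7 lists (points) in adults and L4 larvae, with list medians as bars. The autophagy and lysosome list has a median of 0.42 in adults and -0.02 at L4, and the tryptophan and kynurenine list has a median of -0.43 in adults and -0.64 at L4.

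Tissue markers were summed in the adult libraries, where fmo-2 and fmo-5 were higher in the mutant. Of all genes tested, 28.6% were higher and 26.5% lower in hira-1(-) adults, with a median log2 fold change of 0.03. At L4 the shares were 35.5% higher and 22.6% lower. The 11 intestine markers came to 3673 to 3894 CPM in hira-1(-) and 3698 to 3866 CPM in N2 adults, with 4 higher, 4 lower and none at 0 (6 higher and 2 lower with library totals). Among them, named after their values were seen, ifb-2 (an intestinal intermediate filament gene) was at 1.195 and cpr-6 (a cathepsin B-like protease gene) at -1.198 on the log2 fold change scale. At L4 they came to 5500 to 5628 CPM in hira-1(-) and 7113 to 7623 CPM in N2, with 1 higher, 8 lower and none at 0. The 10 germ line markers came to 6866 to 7130 CPM in hira-1(-) and 6644 to 7087 CPM in N2 adults, and to 3350 to 3419 CPM in hira-1(-) and 1914 to 2047 CPM in N2 L4 larvae, with none at 0. The 8 body wall muscle markers came to 2716 to 3059 CPM in hira-1(-) and 2201 to 2370 CPM in N2 adults, with 5 higher, 2 lower and none at 0. The 10 hypodermis markers came to 378 to 383 CPM in hira-1(-) and 347 to 351 CPM in N2 adults, with 5 higher, none lower and none at 0 (median log2 fold change 0.53, and 9 higher with library totals). The 5 higher, named after their values were seen, were the cuticle collagen gene rol-6 (3.88), dpy-7 (2.83), wrt-2 (2.75), nhr-25 (0.88) and che-14 (0.82). Each of them was at 2.51 CPM or less in N2 adults. All 5 were lower in N2 adults than in N2 L4 larvae, where rol-6 was at 446 CPM and dpy-7 at 114 CPM. There wrt-2 was at 80.9 CPM, che-14 at 31.4 CPM and nhr-25 at 5.86 CPM. Of the other markers in this list, 4 were higher in N2 adults than in N2 L4 larvae. The other 5, elt-1 (0.25), pxf-1 (0.07), nhr-23 (-0.01), lin-26 (-0.02) and elt-3 (-0.19), were more abundant and did not pass. The part of these tissues and of stage in the family's differences was not tested.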

How the data were processed

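Members and gene lists were chosen with earlier results of these data known. The authors deposited a table of estimated counts per gene and a table of log2(FPKM + 1) values; Bowtie 1.0.1, RSEM 1.2.15, SAMtools 0.1.19 and build ce10 are named in the submitters' processing notes. Strand use in counting: not given in the sources used here. Reads shared between similar genes were split by RSEM. Of 18 columns, 8 match the labels of 1 sample each (in 1 of them a digit stands for a letter), and the other 10 were not used. Names come from a table of assembly WBcel235, matched by sequence name for 44080 of 45461 rows; no coordinates are given because the builds differ.

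Estimated counts were rounded and fitted in R 4.3.3 with edgeR 4.0.16, using TMM scaling, the default expression filter (minimum count 10), a robust quasi-likelihood fit of 4 group means (4 residual degrees of freedom), Benjamini-Hochberg adjustment over all 16770 genes and a threshold of 0.05. Adjusted p-values are from this test unless another tool is named. CPM uses TMM-scaled library sizes. FPKM was recovered from the deposited log2 values. The code was tested on simulated counts. Within groups, chi-square over genes divided by its degrees of freedom was 5.57 to 18.2, so no library was a repeat of another. Intervals are exact, at 95%, and cover counting error only.

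Named genes were the 5 fmo genes, hira-1, per list the 2 members with the smallest adjusted p at L4, the 5 genes nearest in profile to fmo-2 and the 3 nearest to each other fmo gene; other genes are said to be named after their values were seen. The planned description of promoters and proteins was not made, since no sequence was used here. Alternatives were DESeq2 1.42.0, limma 3.58.1 on the deposited log2 values, scaling by RLE or by library totals, a filter of at least 1 CPM in 2 libraries or none, a replicate block, a fit of only the groups compared, and leaving out each library.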

Additional observations from a re-analysis of the deposited data

Results flagged for a closer look

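On the CPM scale the genotype difference went opposite ways at the 2 stages in every library for 2 fmo genes. For fmo-1 the log2 fold change, hira-1(-) minus N2, was 0.58 in adults and -0.11 at L4, which differ by 0.69. For fmo-3 it was -0.28 in adults and 0.09 at L4, which differ by -0.37. Neither difference was tested, and neither L4 value passed. With library totals the L4 value of fmo-1 was 0.03 and that of fmo-3 was 0.22. On the FPKM scale the genotypes overlapped for fmo-1 at L4 (22.15 and 22.21 in hira-1(-), 21.29 and 22.31 in N2). They also overlapped there for fmo-3 in adults (10.01 and 8.76 in hira-1(-), 10.18 and 9.52 in N2). Groups of 2 libraries were too small for a check on single outlying samples.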

How the results depend on the processing

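Counts of genes called stayed within 1.5 times under all 64 alternatives (L4 genotype 9733, and 7906 to 9762 with 1 library left out; adult genotype 9235, and 7424 to 9891; N2 stage 13679, and 12884 to 13712; hira-1(-) stage 12473, and 11390 to 12801), but the share of calls that were higher moved with scaling: 61.1% at L4 was 72.3% with library totals, 50.8% with the 1 CPM filter and 50.5% with only the groups compared, and 51.9% in adults was 75.6% with library totals, 44.8% with RLE and 44.1% in DESeq2. Of the log2 fold changes of the family, 267 under alternatives kept their direction and side of the threshold or moved by less than 1 SD, 17 were no longer past it, 6 newly passed, 19 moved and 9 changed sign. The causes were not tested. At L4, fmo-1 was 0.025 with library totals and 0.024 in limma, and passed at -0.21 with the 1 CPM filter (adjusted p = 0.0291) and at -0.21 with only the groups compared (adjusted p = 0.0221); without single libraries it was -0.25 to -0.11. At L4, fmo-3 passed at 0.22 with library totals and at 0.22 in limma (adjusted p = 0.0378), was -0.015 with the 1 CPM filter and -0.013 with only the groups compared, and -0.044 to 0.10 without single libraries. At L4, fmo-5 did not pass at 0.21 without a filter, 0.14 with the 1 CPM filter, 0.23 in DESeq2 and 0.14 with only the groups compared, and was 0.089 to 0.24 without single libraries, while fmo-4 passed under every alternative (-0.61 to -0.44 without single libraries, -0.33 with library totals, -0.32 in limma) and fmo-2 passed under none (1.24 to 1.37 without single libraries, 1.49 with library totals, 0.062 in limma). In adults, fmo-1 was 0.79 with library totals, 0.71 in limma and 0.46 to 0.64 without single libraries. The adult value of fmo-2 was 2.28 in limma, where 1 is added to each FPKM, and 5.36 to 6.49 without single libraries. Adult fmo-3 was -0.070 with library totals, -0.065 in limma and -0.36 to -0.20 without single libraries. Adult fmo-4 was -0.12 with RLE and -0.12 in DESeq2, 0.15 with library totals, 0.14 in limma and -0.11 to -0.050 without single libraries. Adult fmo-5 was 0.80 with RLE, 0.81 in DESeq2, 1.08 with library totals, 0.94 in limma and 0.82 to 0.91 without single libraries. Between stages, fmo-2 in limma was 0.062 in N2 and 2.28 in hira-1(-), and without single libraries 0.84 to 2.07 in N2 and 5.67 to 6.40 in hira-1(-). The hira-1(-) stage fall of fmo-5 did not pass at -0.17 with RLE, -0.23 without a filter, -0.17 in DESeq2 or -0.21 with the replicate block (adjusted p = 0.0532), and was -0.25 to -0.17 without single libraries. Deviations of same-numbered libraries were close to uncorrelated over genes (-0.0029 at L4 and 0.066 in adults). With 2 libraries per group this cannot decide whether same-numbered libraries shared a batch, and no label says so. The replicate block called 9732 genes at L4. Among named list genes in adults, acs-2 was 0.11 with library totals and 0.042 in limma, umps-1 was 0.11 and 0.12 there, and emb-8 was 0.055 and 0.058. For mtrr-1 the value was -0.056 with RLE, -0.056 in DESeq2 and -0.047 to 0.043 without single libraries. A group left with 1 library is assumed to vary like the others. The few counts of fmo-2 outside hira-1(-) adults limit its other comparisons.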
